A study of Schizosaccharomyces pombe with 12 samples.

Results

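The machinery that destroys RNA in the nucleus of the fission yeast Schizosaccharomyces pombe was followed through 7 of its genes across 4 genotypes. They were chosen by identifier for what their products do, and they are 7 of the 6986 genes with counts in the deposited table: mmi1 (SPCC736.12c), red1 (SPAC1006.03c), pab2 (SPBC16E9.12c), mtl1 (SPAC17H9.02), mtr4 (SPAC6F12.16c), rrp6 (SPAC1F3.01) and dis3 (SPBC26H8.10). All 7 passed the filter on low counts that left 6189 genes to test.

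The nuclear exosome is a multi-subunit complex that degrades RNA from its 3′ end, and it is fed by adaptor complexes that recognise the RNA and unwind it. In growing fission yeast, Mmi1, an RNA-binding protein of the YTH family, binds meiotic mRNAs through a repeated short motif and passes them on for destruction. Red1 is the scaffold of the adaptor complex called MTREC (also NURS), Pab2 is a nuclear poly(A)-binding protein that works with it, and Mtl1 is the helicase of that complex. Mtr4 is the related helicase of the TRAMP adaptor. Rrp6 and Dis3 are the exonucleases of the exosome, Rrp6 being found in its nuclear form and Dis3 in both its nuclear and cytoplasmic forms. The same machinery acts on long non-coding RNAs transcribed upstream of phosphate-responsive genes.

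The tested strains were ssu72-C13S, with a substituted active-site cysteine in Ssu72, a phosphatase of the RNA polymerase II tail, asp1-H397A, with a substitution in the pyrophosphatase domain of the inositol pyrophosphate enzyme Asp1, and a strain with both alleles and a deletion of aps1, which encodes a hydrolase of the Nudix family. This last strain, asp1-H397A ssu72-C13S aps1∆, is called the triple mutant here, and the reference was wild type (WT). Each genotype was 1 strain with 3 libraries, grown vegetatively to log phase in YES medium, and poly(A)+ RNA was sequenced. Whether the 3 libraries came from separate cultures is not given, so p-values measure the spread between these libraries only.

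Total counts ranged from 23115806 to 29124916 per library, and each of the 7 genes had between 1134 and 5451 counts in every library. Counts on aps1 were 37.8, 41.2 and 37.5 CPM (counts scaled to a common library size) in the triple mutant, against 116, 120 and 102 CPM in WT, a log2 fold change of -1.53. The per-gene table does not show which part of aps1 those remaining reads cover, and asp1 and ssu72 carry point substitutions that RNA level does not check. In ssu72-C13S aps1 was also lower than in WT, with a log2 fold change of -0.53 (adjusted p = 2.25e-05 by edgeR). It was -0.09 in asp1-H397A (adjusted p = 0.297). Replicate 3 of asp1-H397A and replicate 1 of the triple mutant stood apart from the other libraries of their genotypes. Their slopes of expression on the adenine content of the transcript were 0.0238 and 0.0202 log2 units per percentage point. The slopes were -0.0505 and -0.0561 in the other asp1-H397A libraries and -0.0414 and -0.0402 in the other triple mutant libraries. In WT they were 0.0471, 0.0245 and 0.0409, and in ssu72-C13S 0.00882, 0.0093 and 0.0135. By this measure the 2 libraries lay nearer WT than the other libraries of their genotypes did. Tests of the 7 genes and of the named list genes in those genotypes against WT are therefore given with and without these 2 libraries. Leaving them out keeps the libraries that differ most from WT in adenine slope.

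In the ssu72-C13S strain 4 of the 7 genes fell (dis3, mtr4, red1 and mmi1) and none rose. With all 12 libraries only mmi1 was called in asp1-H397A, and it rose. In the triple mutant mmi1 and pab2 rose. The changes called were small, with levels in a mutant between 0.754 and 1.35 times those in WT. These counts stood against a broad background, since the same test called 54.7% of all genes for ssu72-C13S, 44.4% for asp1-H397A and 51.9% for the triple mutant. By direction, ssu72-C13S had 25.5% of all genes called higher and 29.1% called lower, asp1-H397A had 25.8% higher against 18.6% lower, and the triple mutant had 26.2% higher against 25.7% lower. Without the 2 libraries that stood apart, 5 of the 7 genes were called in asp1-H397A, beside 73.0% of all genes. Throughout, a gene was called when its p from edgeR's quasi-likelihood test, adjusted over all genes tested by Benjamini-Hochberg, was under 0.05. In bulk RNA, fewer cells of a kind and less RNA per cell cannot be told apart.

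**Figure D1:**
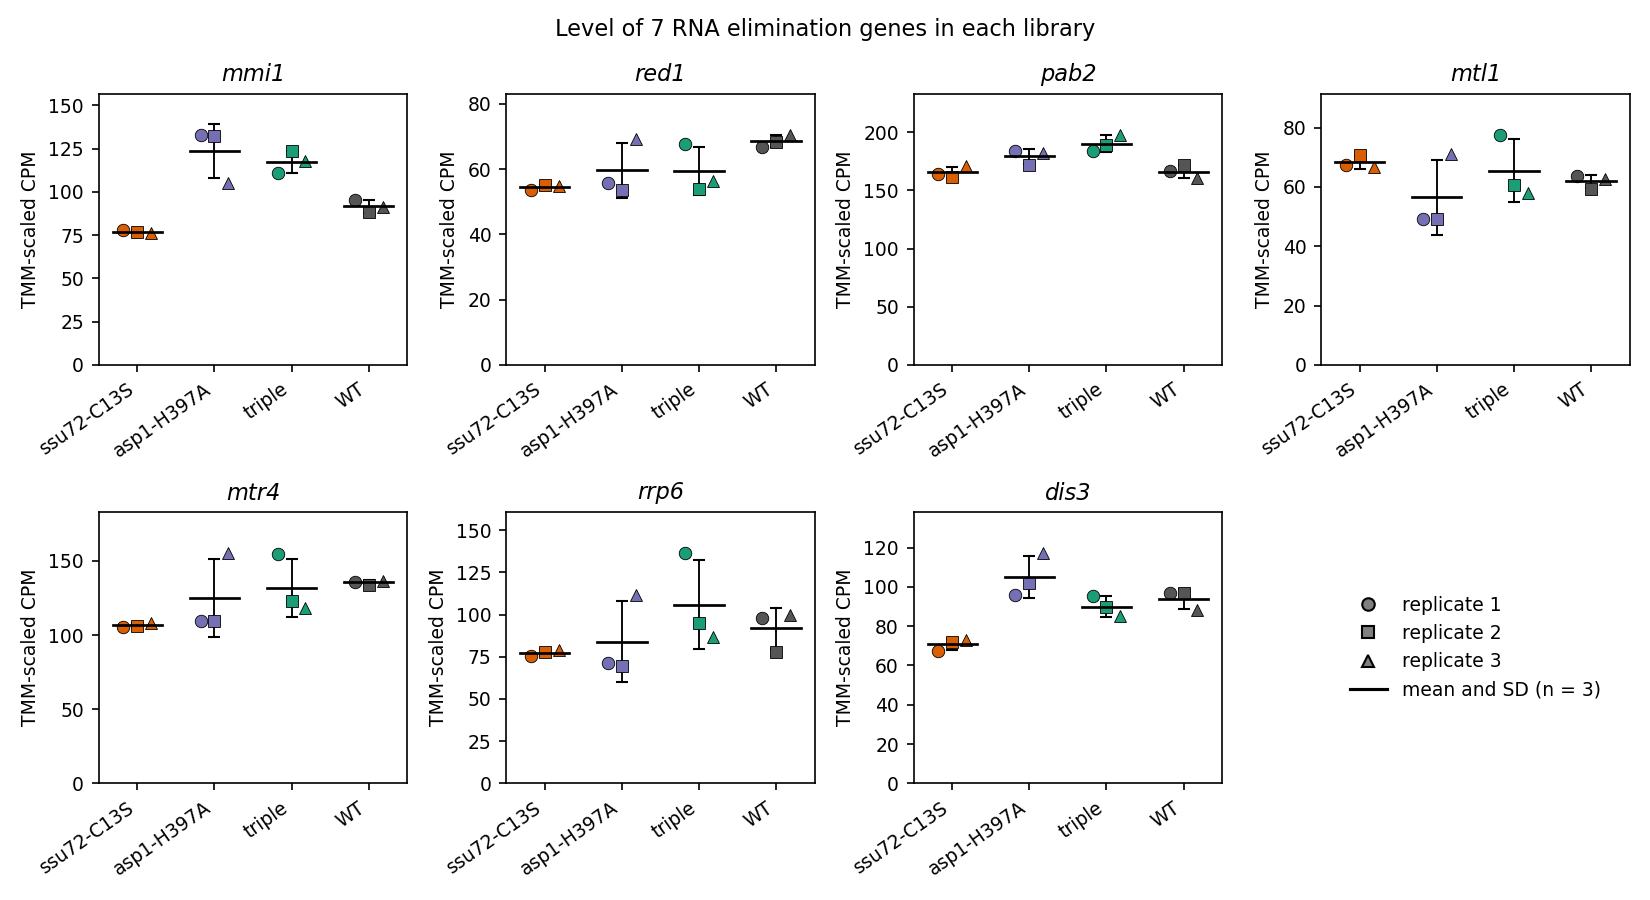
Level of each of the 7 genes in every library, as CPM with TMM scaling (vertical axis, from 0), for ssu72-C13S, asp1-H397A, the triple mutant and WT; symbols are replicates 1 to 3, bars the mean and SD (n = 3). The ssu72-C13S libraries sit together below WT for mmi1, red1, mtr4 and dis3, while asp1-H397A replicate 3 and triple mutant replicate 1 sit above their partners for red1, mtl1, mtr4, rrp6 and dis3.

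With all libraries, mmi1 was the only member called in both single mutants, and its mRNA moved in opposite directions there. Opposite calls were not particular to mmi1 under other settings. Without the libraries that stood apart, mtl1 was called higher in ssu72-C13S and lower in asp1-H397A. With the trend on adenine content removed, dis3 was called lower in ssu72-C13S and higher in asp1-H397A. The level of mmi1 was 78.0, 76.9 and 76.0 CPM in the ssu72-C13S libraries and 133, 132 and 105 CPM in asp1-H397A. It was 111, 123 and 118 CPM in the triple mutant, against 95.4, 88.1 and 91.5 CPM in WT. No mutant group overlapped WT, as was the case for 74.1%, 49.2% and 59.0% of all genes in ssu72-C13S, asp1-H397A and the triple mutant. In ssu72-C13S mmi1 fell by 0.25 on the log2 scale (SE 0.0826, adjusted p = 0.0196 in edgeR). In asp1-H397A it rose by 0.43 (SE 0.0823, adjusted p = 9.26e-04), and its rise in the triple mutant was 0.35 (SE 0.0824, adjusted p = 0.00266).

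The rise of mmi1 in both asp1-H397A and the triple mutant passed under all 23 alternative ways of processing that were run, and without the 2 libraries that stood apart it was 0.53 and 0.39. The fall in ssu72-C13S was less secure. By edgeR's quasi-likelihood test its adjusted p was 0.0731 without WT replicate 1, 0.0537 and 0.0577 without ssu72-C13S replicates 2 and 3, 0.0584 without asp1-H397A replicate 1 and 0.066 without triple mutant replicate 2. With RLE scaling in edgeR it was 0.0617 and with DESeq2 0.0635.

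The MTREC scaffold gene red1 was lower in ssu72-C13S, at 53.6, 55.1 and 54.7 CPM, against 66.9, 68.2 and 70.5 CPM in WT, and the groups did not overlap. It fell by 0.33 on the log2 scale (SE 0.102, adjusted p = 0.0141 in edgeR), and this call held under the 23 alternatives. In asp1-H397A red1 stood at 55.7, 53.7 and 69.2 CPM and in the triple mutant at 67.7, 53.8 and 56.4 CPM. The single high library in each of these genotypes was one of the pair that stood apart, and the other libraries lay below all of WT. With all 12 libraries the log2 fold changes were -0.20 in asp1-H397A (adjusted p = 0.124) and -0.21 (adjusted p = 0.104) in the triple mutant, neither past the threshold of edgeR's test. With the 2 libraries left out they were -0.32 (adjusted p = 1.22e-05) and -0.31 (adjusted p = 1.84e-05) in the same test. Leaving out asp1-H397A replicate 3 alone was enough for the call in asp1-H397A (adjusted p = 0.00405), and leaving out either library alone was enough in the triple mutant (adjusted p = 0.0262 without asp1-H397A replicate 3 and 0.0145 without triple mutant replicate 1). After the trend with adenine content was removed, the differences were 0.01 and -0.01, and neither passed.

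The poly(A)-binding protein gene pab2 was the most even of the 7. Its level was 164, 162 and 171 CPM in ssu72-C13S, 184, 172 and 182 CPM in asp1-H397A and 184, 189 and 198 CPM in the triple mutant, against 166, 171 and 161 CPM in WT. The triple mutant libraries all lay above WT, and the rise of 0.20 on the log2 scale passed edgeR's quasi-likelihood test (SE 0.0537, Benjamini-Hochberg adjusted p = 0.00779). It was 0.22 without the 2 libraries, and of the 23 alternatives the call was lost under upper-quartile scaling, where the adjusted p was 0.0505. The difference was 0.11 in asp1-H397A (0.10 without the 2 libraries, adjusted p = 0.0519 by edgeR), which changed sign to -0.03 under upper-quartile scaling, and -0.01 in ssu72-C13S, whose sign also varied. Neither passed the test.

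The helicase genes parted in ssu72-C13S. There mtr4, of the TRAMP adaptor, was lower at 105, 106 and 108 CPM, against 136, 134 and 137 CPM in WT. It fell by 0.35 on the log2 scale (SE 0.122, adjusted p = 0.0274 in edgeR). Leaving out any of the 6 libraries of these genotypes moved the adjusted p to between 0.0558 and 0.0729 in the same test, although the fall stayed between 0.34 and 0.36, and upper-quartile scaling gave 0.0524. In contrast mtl1, of MTREC, stood at 67.2, 70.9 and 66.9 CPM in ssu72-C13S, against 63.6, 59.4 and 62.7 CPM in WT, with no overlap. Its log2 difference of 0.14 did not pass with all 12 libraries (adjusted p = 0.39 by edgeR), and passed in the same test without the 2 libraries (adjusted p = 0.00796), where 72.5% of all genes were called.

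In asp1-H397A both helicase genes split by library. The level of mtl1 was 49.1, 49.2 and 71.2 CPM and that of mtr4 was 109.6, 109.6 and 155 CPM, replicate 3 being the high one for each. In the triple mutant mtl1 was at 77.6, 60.8 and 58.1 CPM and mtr4 at 154, 123 and 118 CPM, replicate 1 being the high one. None of these groups differed from WT in edgeR's test with all libraries. When both were left out, mtl1 and mtr4 fell by 0.33 and 0.31 on the log2 scale in asp1-H397A (adjusted p = 1.77e-05 and 1.46e-06 in edgeR), and mtr4 fell by 0.17 in the triple mutant (adjusted p = 8.77e-04). Leaving out asp1-H397A replicate 3 alone gave the same 2 calls in asp1-H397A (adjusted p = 0.00939 for mtl1 and 0.00646 for mtr4). The log2 difference of mtl1 in the triple mutant turned from 0.08 with all libraries to -0.06 without the 2, and was 0.28 (adjusted p = 0.00209 by edgeR) after removal of the adenine trend.

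The ratio of mtl1 to mtr4 within a library does not depend on how libraries are scaled. Per kilobase of transcript it was 0.670, 0.698 and 0.649 in ssu72-C13S, 0.470, 0.471 and 0.481 in asp1-H397A and 0.526, 0.518 and 0.514 in the triple mutant, against 0.490, 0.464 and 0.480 in WT. The ratio was thus 0.672 ± 0.0245 in ssu72-C13S and 0.478 ± 0.0129 in WT (SD, n = 3 each), and the groups did not overlap. Replicate 3 of asp1-H397A and replicate 1 of the triple mutant had the highest ratio of their genotypes, by far less than the gap between ssu72-C13S and WT. The exact two-sided permutation test gave p = 0.1, the smallest that 3 against 3 libraries allow, and 0.171 after adjustment over 12 ratio tests. The ratios were chosen after the counts had been seen.

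**Figure D2:**
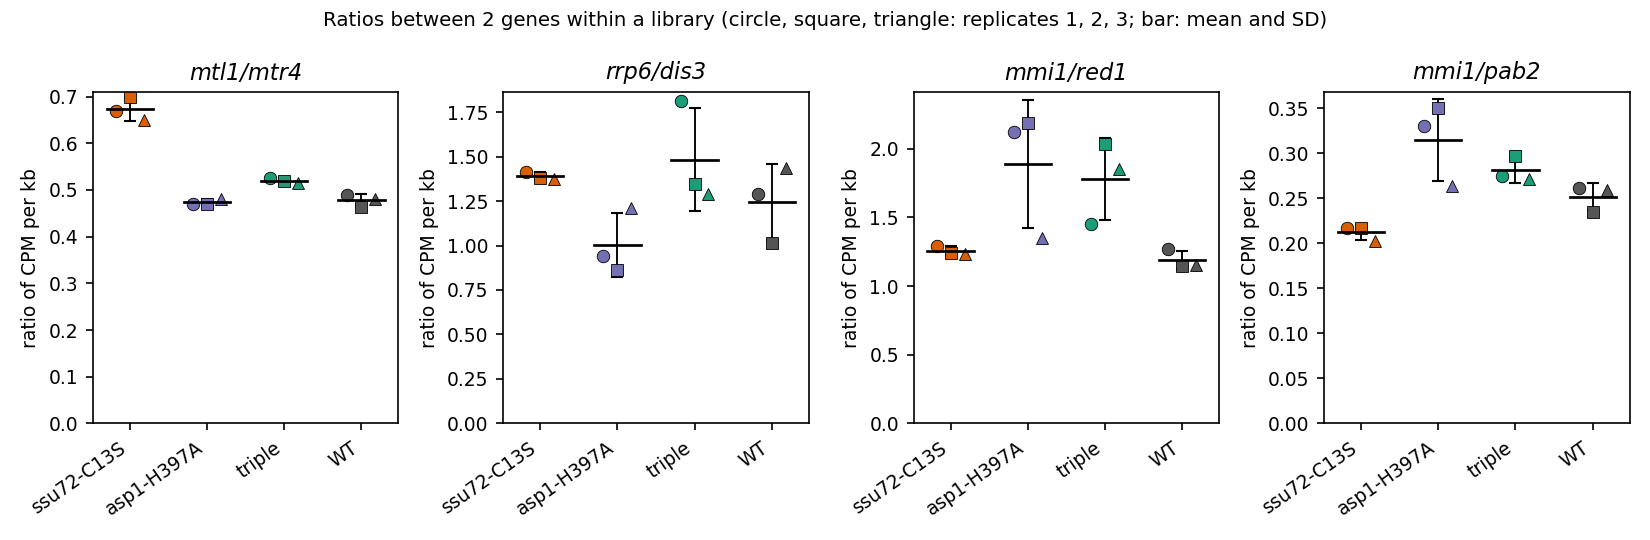
Ratios of CPM per kilobase between pairs of the 7 genes within each library (vertical axes, from 0, no unit), for the 4 genotypes; symbols are replicates 1 to 3, bars the mean and SD (n = 3). The ratio of mtl1 to mtr4 lies between 0.649 and 0.698 in ssu72-C13S and between 0.464 and 0.490 in WT, and the ratio of mmi1 to red1 is higher in asp1-H397A and the triple mutant than in WT.

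Of the other pairs, mmi1 over red1 averaged 1.26 for ssu72-C13S, 1.89 for asp1-H397A and 1.78 for the triple mutant, against 1.19 in WT, and the groups of asp1-H397A and the triple mutant lay wholly above WT. In asp1-H397A this ratio was 2.12 and 2.19 in replicates 1 and 2 and 1.35 in replicate 3. The ratio of mmi1 to pab2 averaged 0.212 for ssu72-C13S, 0.315 for asp1-H397A and 0.281 for the triple mutant, against 0.252 in WT. Rrp6 over dis3 averaged 1.39, 1.00 and 1.48 in ssu72-C13S, asp1-H397A and the triple mutant, against 1.247 in WT, and each group overlapped WT. The adjusted p of the exact permutation test was 0.171 or higher for all 12 tests.

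Of the nuclease genes, dis3 gave the firmest fall. It was at 67.5, 71.8 and 73.0 CPM in ssu72-C13S, 96.1, 102 and 117 CPM in asp1-H397A and 95.3, 89.6 and 85.0 CPM in the triple mutant, against 96.7, 97.0 and 88.0 CPM in WT. The ssu72-C13S libraries lay below all the other libraries of the study. The fall in ssu72-C13S was 0.41 on the log2 scale (SE 0.0784, adjusted p = 6.35e-04 in edgeR) and was called under the 23 alternatives. In asp1-H397A the log2 difference was 0.16 (adjusted p = 0.11 by edgeR) and that of the triple mutant was -0.06 (adjusted p = 0.535), and neither was called. They were 0.08 (adjusted p = 0.198) and -0.10 (adjusted p = 0.0874) without the 2 libraries, by the same test. Removal of the adenine trend raised the value in asp1-H397A to 0.20 (adjusted p = 0.0136 by edgeR).

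The other nuclease gene, rrp6, had the widest spread. It was at 75.3, 78.0 and 79.1 CPM in ssu72-C13S, 71.1, 69.4 and 111 CPM in asp1-H397A and 136, 95.1 and 86.5 CPM in the triple mutant, against 98.1, 77.6 and 99.8 CPM in WT. Within a genotype its libraries differed by up to 1.61-fold, and WT replicate 2 lay inside the range of ssu72-C13S. With all libraries it was called in no mutant against WT. Without the 2 libraries it fell by 0.25 on the log2 scale in ssu72-C13S (adjusted p = 0.00373) and by 0.39 in asp1-H397A (adjusted p = 2.75e-04), both by edgeR's quasi-likelihood test, and the difference in the triple mutant was -0.02, against 0.21 with all libraries. Leaving out asp1-H397A replicate 3 alone gave an adjusted p of 0.0342 for asp1-H397A in edgeR's test. Removal of the adenine trend gave 0.51 in the triple mutant (adjusted p = 3.51e-05 by edgeR) and a sign change to 0.18 in asp1-H397A.

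**Figure D3:**
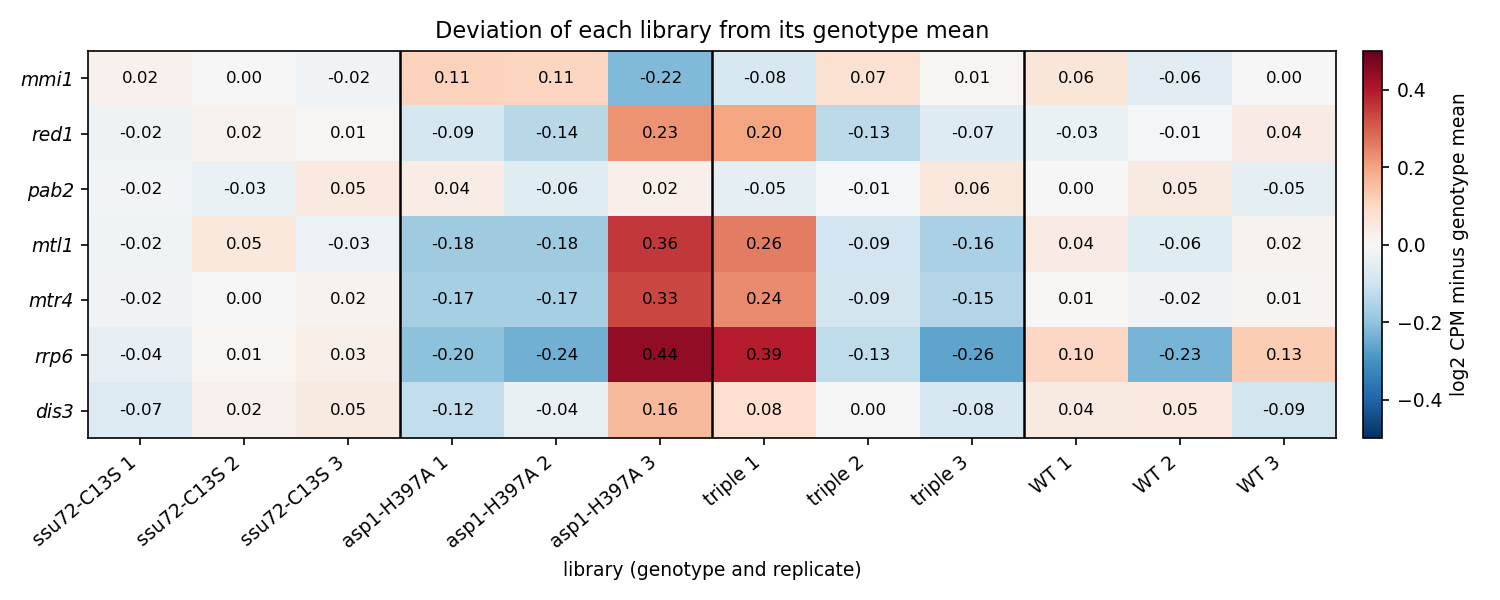
Deviation of log2 CPM from the mean of its genotype (colour and printed value) for each of the 7 genes in each of the 12 libraries. For the libraries asp1-H397A 3 and triple 1, rrp6 stands 0.44 and 0.39 above its genotype mean and mtl1 stands 0.36 and 0.26 above, while mmi1 stands below in both.

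The spread within genotypes was shared between genes. In asp1-H397A replicate 3, red1, mtl1, mtr4 and rrp6 stood 0.23, 0.36, 0.33 and 0.44 log2 units above the genotype mean and dis3 0.16 above it, while mmi1 stood 0.22 below it and pab2 differed by 0.02. Triple mutant replicate 1 had red1, mtl1, mtr4 and rrp6 0.20, 0.26, 0.24 and 0.39 above its genotype mean, dis3 0.08 above, and mmi1 and pab2 0.08 and 0.05 below. The 7 genes also differ in the adenine content of their spliced transcripts. It is 34.9% for rrp6, 33.1% for red1, 33.0% for mtl1 and 31.3% for mtr4, and 30.3% for dis3, 29.6% for pab2 and 29.6% for mmi1, with a median of 30.4% over 5143 coding genes. The 4 genes above that median stood high in both libraries, and so did dis3, which lies just below it. The part of adenine content in these differences was not tested beyond the fits with the trend removed.

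**Figure D4:**
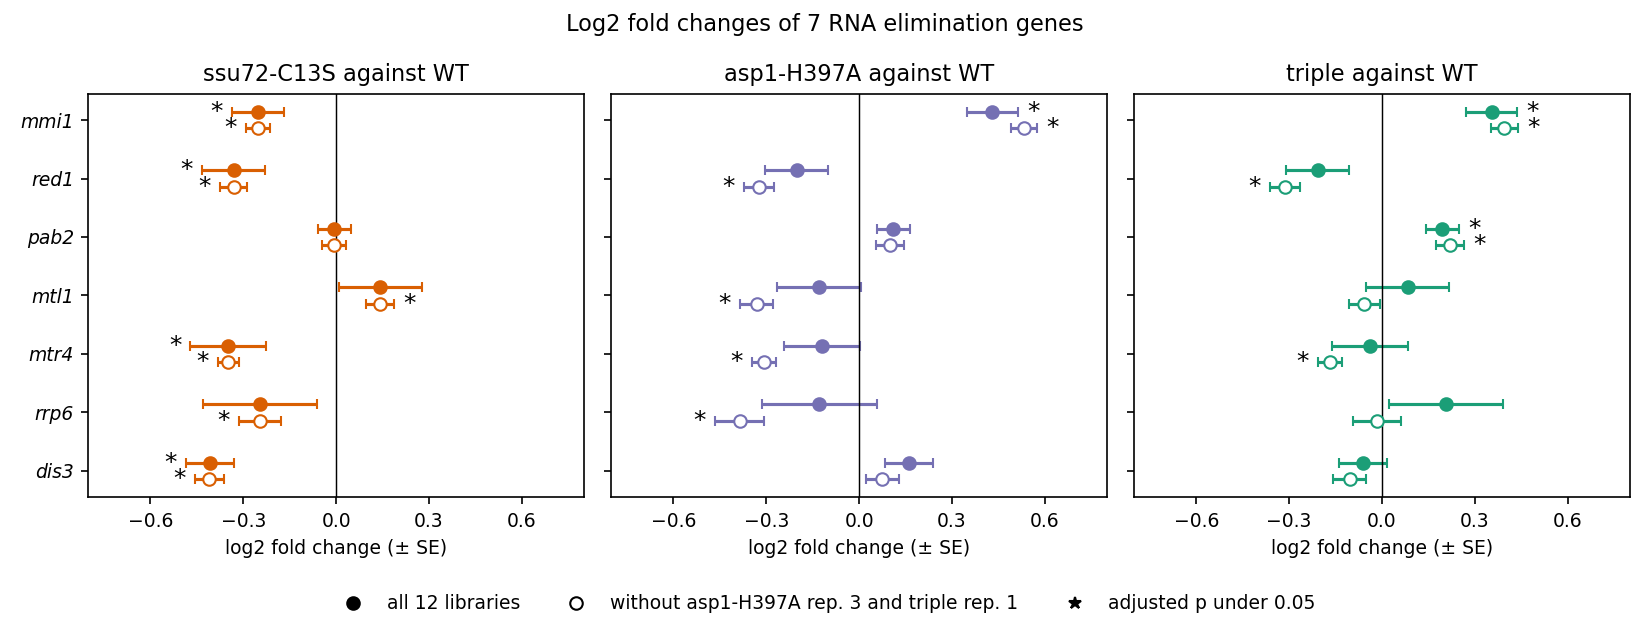
Log2 fold change ± SE of the 7 genes against WT in ssu72-C13S, asp1-H397A and the triple mutant, with all 12 libraries (filled) and without asp1-H397A replicate 3 and triple mutant replicate 1 (open); stars mark adjusted p under 0.05. In asp1-H397A 1 gene is called with all libraries and 5 without the 2, and mmi1 lies right of 0 in asp1-H397A and the triple mutant and left of it in ssu72-C13S.

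Without the 2 libraries, 6 of the 7 genes were called in ssu72-C13S (1 higher, 5 lower), 5 in asp1-H397A (1 higher, 4 lower) and 4 in the triple mutant (2 higher, 2 lower). The background rose as well. Of all genes 72.5% were called in ssu72-C13S (33.2% higher, 39.3% lower), 73.0% in asp1-H397A (34.7% higher, 38.2% lower) and 70.2% in the triple mutant (32.9% higher, 37.3% lower). The median log2 difference of the 7 genes was then -0.25 for ssu72-C13S, -0.31 for asp1-H397A and -0.06 for the triple mutant, beside -0.04 for all genes tested in each of the comparisons. With all libraries the medians were -0.25, -0.12 and 0.08, beside -0.04, 0.00 and -0.01 for all genes.

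Set against ssu72-C13S, the triple mutant had higher levels of 4 of the 7 genes and lower levels of none, where 56.3% of all genes were called, 28.8% higher and 27.5% lower. Relative to ssu72-C13S, mmi1 rose in the triple mutant by 0.61 on the log2 scale (SE 0.0829, adjusted p = 3.15e-05 in edgeR). The increases of dis3 (0.35, adjusted p = 0.00201), pab2 (0.20, adjusted p = 0.00581) and mtr4 (0.31, adjusted p = 0.0454) also passed. The call for mtr4 was fragile: its adjusted p was 0.195 without triple mutant replicate 1, 0.105, 0.0967 and 0.0873 without ssu72-C13S replicates 1, 2 and 3, 0.0602, 0.0589 and 0.0603 without WT replicates 1, 2 and 3, and 0.178 under upper-quartile scaling. That for pab2 was lost without triple mutant replicate 2 (adjusted p = 0.057 by edgeR) and under upper-quartile scaling (adjusted p = 0.0716). The gap of rrp6 was 0.45 (adjusted p = 0.0511), and it became 0.23 and was called without the 2 libraries (adjusted p = 0.0138 by edgeR), one of 6 genes then called (5 higher and mtl1 lower) where 70.1% of all genes were (33.8% higher, 36.3% lower). It was also called on leaving out asp1-H397A replicate 1, 2 or 3 or triple mutant replicate 2 or 3 (adjusted p from 0.00729 to 0.0424).

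Between the triple mutant and asp1-H397A only dis3 was called, with 85.0 to 95.3 CPM in the triple mutant and 96.1 to 117 CPM in asp1-H397A. It fell by 0.22 on the log2 scale (SE 0.0784, adjusted p = 0.0395 by edgeR), where 36.8% of all genes were called (15.7% higher, 21.1% lower). The call was lost under 12 of the 23 alternatives. Among these were the fits without WT replicate 1 or 2, without any ssu72-C13S replicate, without asp1-H397A replicate 2 or 3 and without triple mutant replicate 2 or 3. In these fits the adjusted p was between 0.0517 and 0.131 in edgeR's test. Without the 2 libraries that stood apart 6 genes were called (4 higher, 2 lower), where 53.5% of all genes were (26.6% higher, 26.9% lower). These were rrp6 (0.37), mtl1 (0.27), mtr4 (0.14) and pab2 (0.12) among the higher, and dis3 (-0.18) and mmi1 (-0.14) among the lower. Leaving out asp1-H397A replicate 3 alone called rrp6, mtl1, mtr4 and mmi1 (adjusted p from 0.00349 to 0.0194 by edgeR) and not dis3.

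Asp1-H397A exceeded ssu72-C13S in mmi1 by 0.68 on the log2 scale (SE 0.0828, adjusted p = 1.06e-05 in edgeR) and in dis3 by 0.57 (SE 0.0786, adjusted p = 3.62e-05). Both held under the 23 alternatives. The background was 54.0% of all genes called, 29.7% higher and 24.3% lower. Leaving out the 2 libraries gave 4 calls (3 higher, 1 lower) against a background of 72.3% (35.5% higher, 36.8% lower). The gap of mtl1 ran the other way at -0.27 (adjusted p = 0.103 by edgeR), and it was -0.47 and called without the 2 libraries (adjusted p = 2.05e-07) , without asp1-H397A replicate 3 alone (adjusted p = 7.91e-04) and without triple mutant replicate 2 alone (adjusted p = 0.0429).

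Whether the triple mutant equals the sum of the single mutants was tested as its log2 level minus those of both single mutants plus that of WT, a contrast that also holds any effect of the aps1 deletion. Of the 7 genes 0 were called by edgeR's quasi-likelihood test, where 41.9% of all genes were (20.1% upward, 21.8% downward). At an unadjusted p under 0.05 there were 3, and DESeq2 called 3. All 7 values were positive, with a median of 0.19 beside 0.04 for all genes. The largest were rrp6 at 0.58 (SE 0.261, adjusted p = 0.0907), mtr4 at 0.43 (SE 0.173, adjusted p = 0.0621) and red1 at 0.32 (SE 0.144, adjusted p = 0.0873), and that of mtl1 turned negative under some alternatives. Without the 2 libraries 4 genes departed upward, where 60.1% of all genes were called, 32.5% upward and 27.6% downward: rrp6 by 0.62, mtr4 by 0.49, red1 by 0.34 and dis3 by 0.23 (adjusted p from 4.88e-07 to 0.0134 by edgeR). Leaving out asp1-H397A replicate 3 alone gave the same 4 genes (adjusted p from 4.16e-04 to 0.0202). For mtr4 the adjusted p was 0.0348 and 0.0412 without triple mutant replicates 2 and 3, for red1 0.0366 without triple mutant replicate 2 and for rrp6 0.0471 without triple mutant replicate 3.

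Per kilobase of spliced transcript, pab2 had the highest level of the 7 genes in every genotype, at 132 ± 4.002, 143 ± 5.04 and 151 ± 5.57 CPM per kb in ssu72-C13S, asp1-H397A and the triple mutant, against 132 ± 4.32 CPM per kb in WT (SD, n = 3 each). The lowest was mtl1, at 20.1 ± 0.653, 16.6 ± 3.73 and 19.2 ± 3.10 CPM per kb in the same mutants and 18.2 ± 0.661 CPM per kb in WT. Between them WT ran from mtr4 (38.0 ± 0.420) and rrp6 (37.7 ± 5.07) through mmi1 (33.3 ± 1.33) and dis3 (30.4 ± 1.64) to red1 (28.0 ± 0.747). In WT the library ranges of mtr4 and rrp6, of rrp6 and mmi1 and of dis3 and red1 overlapped, so their order is not set by these data. In asp1-H397A mmi1 was second, at 44.9 ± 5.74 CPM per kb, and overlapped mtr4 (34.98 ± 7.36). In the other 2 libraries of asp1-H397A these genes averaged 48.2 and 30.7 CPM per kb, and the 7 genes ran from 14.5 for mtl1 to 142 for pab2. The other 2 libraries of the triple mutant ran from 17.5 for mtl1 to 154 for pab2. Together the 7 genes took 0.0670%, 0.0694% and 0.0678% of all counts in ssu72-C13S, asp1-H397A and the triple mutant, against 0.0783% in WT. The share was 0.0815% in asp1-H397A replicate 3, 0.0783% in triple mutant replicate 1 and 0.0622% to 0.0645% in the other libraries of those genotypes. These shares are of unscaled counts, unlike the TMM-scaled levels above. TMM factors were 1.09 to 1.13 in WT, 1.08 to 1.09 in ssu72-C13S, 0.904 to 1.004 in asp1-H397A and 0.847 to 0.948 in the triple mutant. A lower factor gives a higher scaled level for the same share, so lower shares do not show lower scaled levels.

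Other genes of the pathway were read from lists of known components. Of 11 further exosome subunits and cofactors, 5 fell and none rose in ssu72-C13S, where 54.7% of all genes were called and 29.1% were lower. They were led by rrp40 and rrp42, which encode a cap and a ring subunit. Rrp40 had 36.5, 38.1 and 38.6 CPM in ssu72-C13S, against 58.1, 58.7 and 53.9 CPM in WT, a fall of 0.59 on the log2 scale (adjusted p = 0.00168 by edgeR). Rrp42 fell by 0.46 (adjusted p = 9.27e-05). In asp1-H397A, against a background of 44.4%, 1 of the 11 fell, cti1, which encodes an exosome cofactor, by 0.42 (adjusted p = 0.00104 by edgeR). In the triple mutant csl4, a cap subunit gene, and rrp45, a ring subunit gene, rose by 0.37 and 0.24 (adjusted p = 0.0111 and 0.0231 by edgeR), and none fell, where 51.9% of all genes were called. Leaving out the 2 libraries gave -0.51 for cti1, 0.26 for csl4 and 0.22 for rrp45, all called. The call for rrp45 was lost under upper-quartile scaling (adjusted p = 0.105 by edgeR), without WT replicate 3 (adjusted p = 0.083) and without triple mutant replicate 3 (0.0596). The medians of the 11 genes were -0.26, -0.09 and 0.05 in the 3 mutants in that order, beside -0.04, 0.00 and -0.01 for all genes. The count is sensitive to the 2 libraries: without them 8, 9 and 6 of the 11 were called, with 0, 1 and 3 higher, where 72.5%, 73.0% and 70.2% of all genes were called.

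Of 10 MTREC and TRAMP partners, 5 fell and none rose in ssu72-C13S, 1 rose and 1 fell in asp1-H397A, and 2 rose and 2 fell in the triple mutant. These 5, 2 and 4 calls stand beside 54.7%, 44.4% and 51.9% of all genes. The largest change in ssu72-C13S was in cbc1, the gene of the large subunit of the nuclear cap-binding complex, at 76.7, 76.7 and 84.9 CPM in ssu72-C13S, 150.1, 160 and 151 CPM in asp1-H397A and 117, 110.5 and 117 CPM in the triple mutant, against 133, 138 and 134 CPM in WT. In ssu72-C13S its log2 level fell by 0.77 (adjusted p = 1.73e-07 by edgeR), and in asp1-H397A it rose by 0.19 (adjusted p = 0.0166). That rise was lost without WT replicates 1 or 3 and without asp1-H397A replicates 1 or 2 (adjusted p from 0.0507 to 0.0723), was lost with only the genotypes compared in the fit (0.122), and was 0.04 under upper-quartile scaling. Red5, which encodes a zinc-finger protein of MTREC, fell by 0.69 in ssu72-C13S and by 0.72 in the triple mutant (adjusted p = 0.00274 and 0.00218 by edgeR). Its fall of 0.42 in asp1-H397A (adjusted p = 0.0476) was lost under 11 of the 23 alternatives, among them leaving out any WT or ssu72-C13S library, asp1-H397A replicates 1 or 2 or triple mutant replicate 3 (adjusted p from 0.0554 to 0.193). Rmn1, an RNA-binding subunit gene of MTREC, rose by 0.24 in the triple mutant (adjusted p = 0.0101 by edgeR), and this was lost without WT replicate 1 (0.0577) and under upper-quartile scaling (0.0723). Leaving out the 2 libraries, red5 fell by 0.65 in asp1-H397A and by 0.90 in the triple mutant, cbc1 rose by 0.20 in asp1-H397A and rmn1 by 0.21 in the triple mutant. The medians of the 10 genes were -0.19, -0.03 and 0.02 in ssu72-C13S, asp1-H397A and the triple mutant. With those libraries left out 5, 7 and 6 of them were called, with 0, 2 and 2 higher, beside 72.5%, 73.0% and 70.2% of all genes.

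A list of Ccr4-Not subunits and regulators of Mmi1 held 10 genes. Among them were dhp1 and exo2, which encode exonucleases and not Ccr4-Not subunits. Of the 10 genes, 8 were called in ssu72-C13S (1 higher, 7 lower), 6 in asp1-H397A (4 higher, 2 lower) and 5 in the triple mutant (2 higher, 3 lower). These calls stand beside 54.7%, 44.4% and 51.9% of all genes. Mei2, whose product sequesters Mmi1 when cells enter meiosis, changed most of the 10 in every mutant. It stood at 10.7, 13.7 and 12.96 CPM in ssu72-C13S, 48.6, 42.8 and 39.1 CPM in asp1-H397A and 19.7, 20.4 and 22.7 CPM in the triple mutant, against 79.0, 67.7 and 65.7 CPM in WT. No mutant library reached the WT range. Mei2 fell by 2.51, 0.70 and 1.76 on the log2 scale in those mutants (adjusted p = 2.95e-09, 2.55e-04 and 5.48e-08 in edgeR). Not2, encoding a core subunit of the Ccr4-Not deadenylase, fell by 0.76 in ssu72-C13S and by 0.65 in the triple mutant (adjusted p = 1.53e-06 and 6.69e-06 by edgeR). Ccr4, encoding a deadenylase of the complex, rose by 0.32 in asp1-H397A (adjusted p = 4.21e-04). The medians of the 10 genes were -0.38, 0.03 and -0.10, beside -0.04, 0.00 and -0.01 for all genes. When the 2 libraries were left out 9, 8 and 9 were called, with 1, 4 and 4 higher, beside 72.5%, 73.0% and 70.2% of all genes. Mei2 then fell by 0.63 in asp1-H397A and by 1.72 in the triple mutant, not2 fell by 0.64 in the triple mutant, and ccr4 rose by 0.33 in asp1-H397A.

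**Figure D5:**
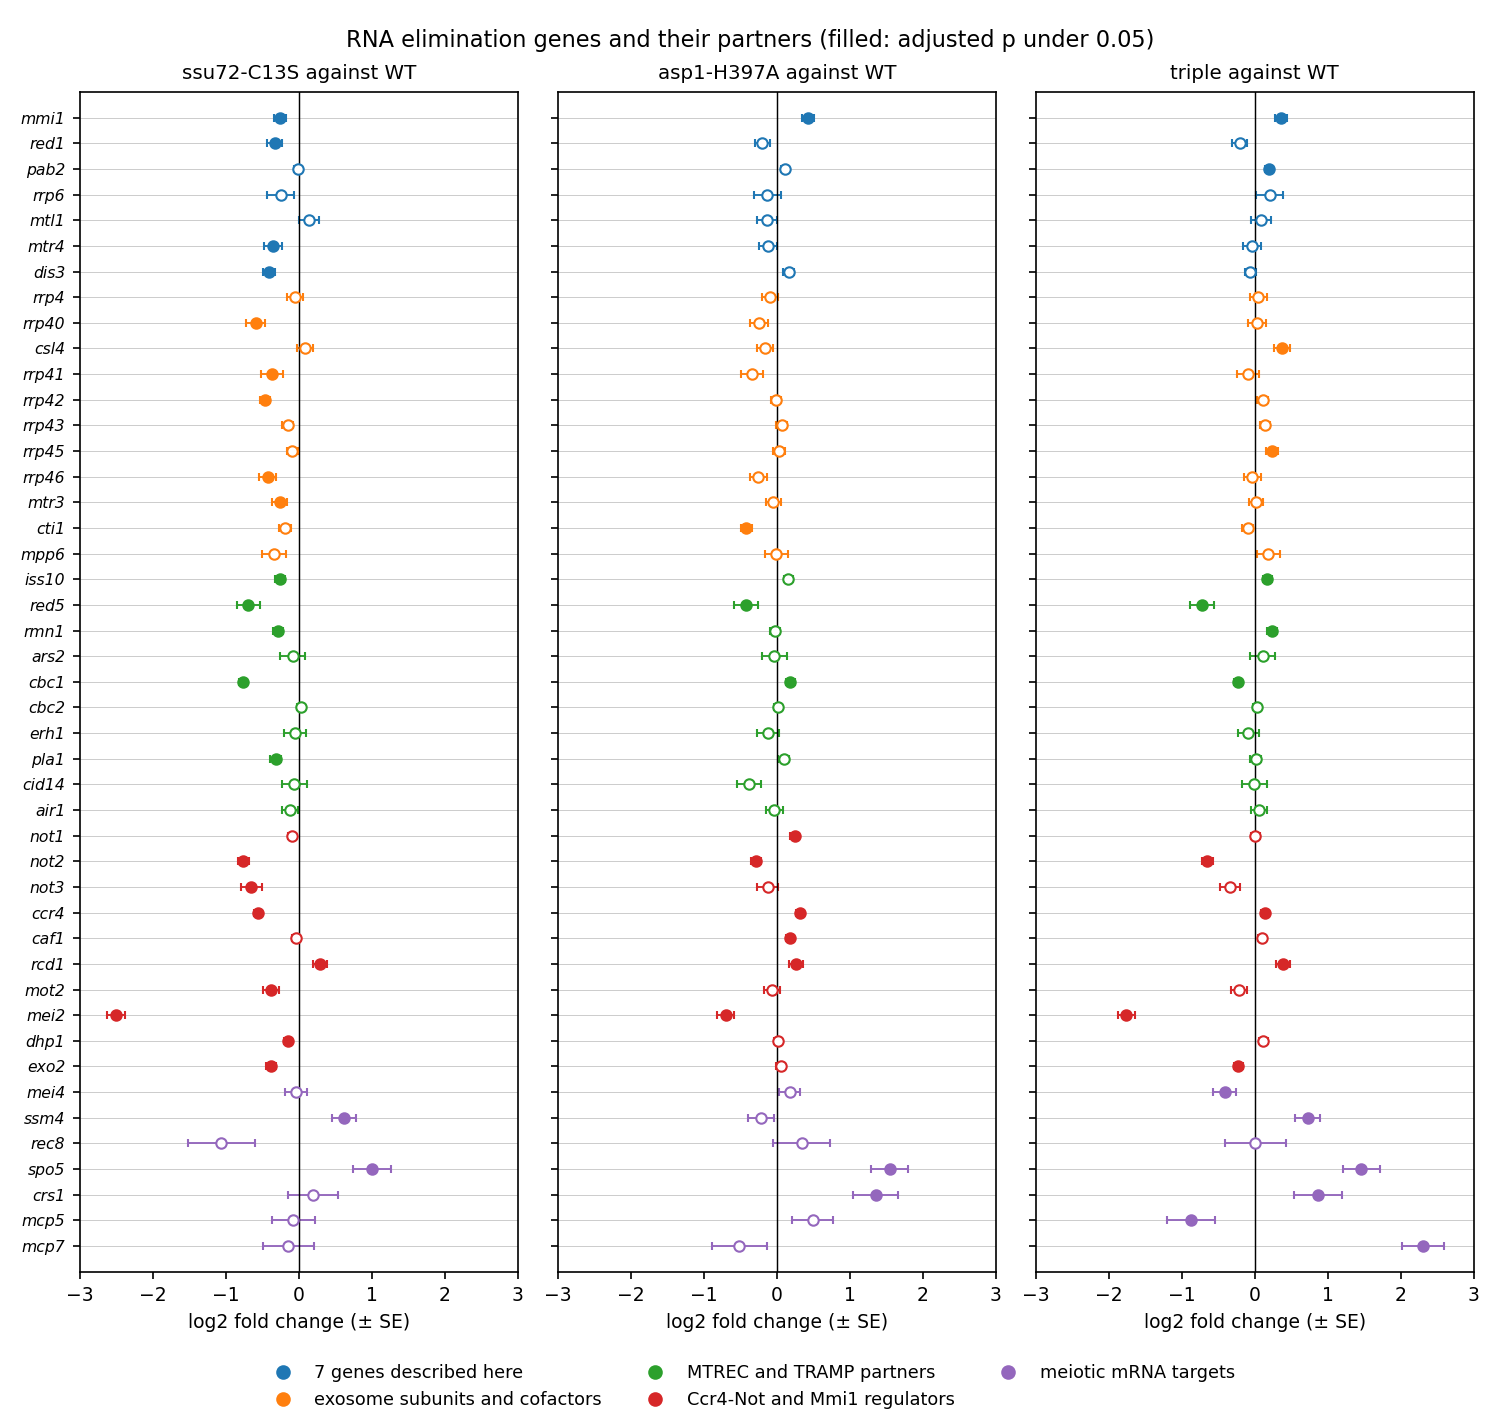
Log2 fold change ± SE against WT in ssu72-C13S, asp1-H397A and the triple mutant of the 7 genes and the genes of 4 other lists, coloured by list; filled points had an adjusted p under 0.05. Mei2 lies farthest left in ssu72-C13S and the triple mutant, and mcp7 farthest right in the triple mutant.

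The list of meiotic mRNAs that Mmi1 removes from growing cells had 7 members: mei4, ssm4, rec8, spo5, crs1, mcp5 and mcp7. All were scarce, with 4 to 167 counts in a library. Both single mutants had 2 that rose, and in the triple mutant 4 rose and 2 fell. Of all genes 25.5%, 25.8% and 26.2% were called higher in ssu72-C13S, asp1-H397A and the triple mutant, and 25.7% lower in the last. Those that fell, named after their values were seen, were mei4, a transcription factor gene, and mcp5. Mei4 overlaps cdk9 on the same strand over 115 of its 2218 bases, and the counts of cdk9 were 2451% of those of mei4. All 3308 bases of mcp5 overlap the non-coding SPNCRNA.1397 on the opposite strand, at 535.8% of the counts of mcp5. Spo5, a gene for a meiotic RNA-binding protein, had 33, 42 and 38 counts in ssu72-C13S, 55, 43 and 44 counts in asp1-H397A and 43, 31 and 49 counts in the triple mutant, against 23, 21 and 14 counts in WT. Its log2 rises were 1.00, 1.55 and 1.46 (adjusted p = 0.00572, 2.99e-04 and 3.50e-04 in edgeR). Ssm4, a dynactin subunit gene, rose by 0.62 in ssu72-C13S (adjusted p = 0.00618) and crs1, a meiotic cyclin gene, by 1.35 in asp1-H397A (adjusted p = 0.00275 by edgeR). Mcp7, a gene for a meiotic coiled-coil protein, had 167, 78 and 84 counts in the triple mutant, against 43, 25 and 18 counts in WT, and rose by 2.31 (adjusted p = 1.54e-05 by edgeR). It overlaps ubp8 on the opposite strand over 596 of its 1499 bases, and the counts of ubp8 were 1604% of those of mcp7. Spo5 likewise overlaps pcf1 over 127 of its 2105 bases, at 3544% of the counts of spo5. Crs1 overlaps ade9 over 444 of its 1194 bases, at 5966% of the counts of crs1. Both overlaps are on the opposite strand. The medians of the 7 mRNAs were -0.04, 0.34 and 0.72, beside -0.04, 0.00 and -0.01 for all genes. Without the 2 libraries 2, 2 and 5 were called, with 2, 2 and 3 higher, where 33.2%, 34.7% and 32.9% of all genes were called higher. The rises of spo5 were then 1.62 for asp1-H397A and 1.47 for the triple mutant, that of crs1 in asp1-H397A was 1.49 and that of mcp7 in the triple mutant was 1.92.

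The motif TNAAAC, to which Mmi1 binds as UNAAAC in RNA, was counted on the sense strand of the coding sequences in the RefSeq annotation, overlapping matches included. The 7 meiotic mRNAs held between 5 and 18 matches. Mmi1 itself held 4, red1 7, mtl1 6, dis3 5, mtr4 2 and pab2 and rrp6 1 each. Among coding genes of similar length, 21.7% held as many as mmi1 or more, 8.33% as many as red1, 41.9% as many as mtl1 and 97.8% as many as rrp6. The shares for dis3, pab2 and mtr4 were 52.7%, 58.3% and 96.3%. For mei4, ssm4, rec8, crs1 and mcp5 the share was between 0.199% and 0.423%, for mcp7 1.67% and for spo5 7.53%.

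Across the 12 libraries the gene whose log2 CPM followed that of mmi1 most closely was pcd1 (Pearson r = 0.989), then rfc5 (0.987). For red1 they were SPBC3B9.03 (0.976) and SPAC23H4.21 (0.970), and for pab2 mtq2 (0.968) and epe1 (0.946). For mtl1 they were miy1 (0.993) and vps33 (0.976), and for mtr4 uvi31 (0.977) and hip1 (0.975). For rrp6 they were utp3 (0.993) and esf2 (0.983), and for dis3 asn2 (0.966) and SPNCRNA.1292 (0.964). These values are descriptions over 12 points that share genotypes, scaling and the 2 libraries that stood apart, and the genes named are the 2 highest of at least 5200 searched for each.

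In the RefSeq annotation each of the 7 genes overlaps another annotated gene on the opposite strand, and 5 have a neighbour with counts in the table. Red1 overlaps asa1 over 68 of its 2968 bases and dis3 overlaps the4 over 122 of its 3250, both on the opposite strand. Over their whole lengths asa1 and the4 had 106.5% and 195.5% of the counts of red1 and dis3. Of its 3403 bases, mtl1 shares 106 with cid16 on the same strand and 13 with rdl1 on the opposite strand. Over its whole length cid16 had 49.0% of the counts of mtl1. Pab2 and mtr4 overlap non-coding RNAs with at most 3.54% of their counts. The library kit keeps the strand, but whether counting used it is not given in the sources used here, so reads in the shared stretches cannot be assigned with certainty. Of the genes named from the lists, rrp40, rrp42, cti1, rrp45 and rmn1 also overlap counted genes on the opposite strand, and cbc1 overlaps one on the same strand. Rrp42 shares 1323 of its 2146 bases with bag101, at 89.3% of the counts of rrp42. Rrp45 shares 366 of its 1651 bases with rnc1, at 1196%, and rmn1 348 of 2366 with idh2, at 177.7%. Cti1 shares 923 of 1471 bases with SPCC1739.08c, at 0.995%, and rrp40 42 of 1085 with dak1, at 339.1%. Over 54 bases rrp42 also overlaps SPNCRNA.1682 on the same strand, with 13.3% of its counts.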

How the data were processed

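Poly(A)+ RNA of 12 libraries was prepared with a stranded mRNA kit and sequenced as paired ends, per the labels' protocols. The authors deposited raw counts per gene, 1 column per library. The submitters' processing notes name HISAT2 2.1.0, SAMtools, HTSeq 0.10.0, DESeq2 and the build ASM294v2, with no role, order or strand setting. Of 6987 rows, 1 repeated an identifier with 0 counts and was dropped. Identifiers were matched to RefSeq assembly ASM294v3 (6833 by locus tag, 13 by synonym, 140 unmatched), used for names, overlaps, lengths and base content. No coordinates or sequences are given, because the builds differ.

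The counts were fitted with edgeR 4.0.16 in R 4.3.3: filterByExpr with a minimum count of 10, TMM scaling, 1 model over all 12 libraries with genotype as the factor, glmQLFit in its legacy form and glmQLFTest for 7 contrasts, with Benjamini-Hochberg adjustment over 6189 genes and a threshold of 0.05. Standard errors are the log2 fold change divided by the square root of F. CPM values are TMM-scaled, and log2 CPM used a prior count of 2. The tests were tested on simulated data. A count of 0 would allow up to 3 counts, or 0.103 to 0.130 CPM, for counting error only. Replicates correlated at 0.992 to 0.998, and no 2 libraries of a genotype agreed within sampling noise.

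The 7 genes, the lists and the rules were chosen with earlier results of these data known. From each list and mutant the 2 called genes with the largest change are named. The gene pab1 was left out because the annotation gives that name to a phosphatase subunit. Alternatives, DESeq2 1.42.0 among them, are in the closing section. Same-numbered replicates were not paired.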

Additional observations from a re-analysis of the deposited data

How the results depend on the processing

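Each result was refitted under 23 alternatives, 22 for the departure from additivity, 12 of which left out 1 library. Of the refits of single genes 1648 kept direction and side of the threshold, 92 gained a call, 61 lost one and 50 changed sign. Of the refits of counts 506 stayed within 1.5 times the first value and 90 did not. Where no cause is given, the cause was not tested. Depth was not the limit for the 7 genes, while spo5 and mcp7 rest on few counts, and a mean count of 50 or more left 1, 0 and 3 meiotic mRNAs called in ssu72-C13S, asp1-H397A and the triple mutant, since fewer were tested.

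Upper-quartile scaling moved the median log2 difference of all genes to -0.146 in asp1-H397A against WT and -0.135 in asp1-H397A against ssu72-C13S. The split of calls became 934 higher and 1966 lower in asp1-H397A against WT, where TMM scaling gave 1595 and 1152. It became 1300 and 1920 in the triple mutant against WT (1619 and 1591 with TMM), 1406 and 2104 in the triple mutant against ssu72-C13S (1782 and 1701), 1362 and 964 in the triple mutant against asp1-H397A (973 and 1304), and 1165 and 2292 in asp1-H397A against ssu72-C13S (1836 and 1506). Under this scaling the calls among the 7 genes were 2 for asp1-H397A and 1 for the triple mutant against WT and 2 for the triple mutant against ssu72-C13S. Called as well were 3, 4 and 1 of the exosome list in ssu72-C13S, asp1-H397A and the triple mutant, 2 MTREC partners in the triple mutant and 3 of the Ccr4-Not list in asp1-H397A. Signs changed for red1 in the triple mutant against asp1-H397A (0.0674), for red1, pab2 and rrp6 in asp1-H397A against ssu72-C13S (-0.0319, -0.0466 and -0.0433), and for pab2 in ssu72-C13S (0.013) and asp1-H397A (-0.0336) against WT.

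Under RLE scaling and DESeq2 the departure was called for 2 and 3 of the 7 genes and 3 exosome genes were called in asp1-H397A with each. With both, red1 in the triple mutant against asp1-H397A and pab2 in ssu72-C13S turned to 0.0189 and 0.019. With only the genotypes compared in the fit, 1163 genes and 0 of the 7 were called for the triple mutant over asp1-H397A, 9 exosome genes in ssu72-C13S and 3 of the Ccr4-Not list in asp1-H397A, while red1 in the triple mutant against asp1-H397A changed to 0.00735 and pab2 in ssu72-C13S 0.0239.

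With the adenine trend removed, asp1-H397A and the triple mutant had 2 and 4 of the 7 genes called against WT, with 3 in the triple mutant against asp1-H397A, 6 in asp1-H397A against ssu72-C13S and 3 for the departure, with 2 and 4 exosome genes in asp1-H397A and the triple mutant. Signs changed in asp1-H397A for red1 (0.0089), rrp6 (0.184), mtl1 (0.0686) and aps1 (0.00423), for mtr4 in the triple mutant (0.0624), and for mtl1 in the triple mutant against ssu72-C13S (0.0596) and in the departure (-0.00907).

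Most same-numbered libraries of different genotypes did not deviate together: 5 of 18 pairs correlated above 0.1, the range being -0.43 to 0.32. Replicates 2 of WT, asp1-H397A and the triple mutant correlated with one another at 0.23 to 0.32. The differently numbered asp1-H397A replicate 3 and triple mutant replicate 1 correlated at 0.638. The numbers were therefore not read as pairs. A replicate block called 0 of the 7 genes in the triple mutant against asp1-H397A, and 4, 1 and 2 in ssu72-C13S, asp1-H397A and the triple mutant against WT. The replicate block with the adenine trend removed called 2 and 4 of the 7 in asp1-H397A and the triple mutant against WT, 3 in the triple mutant against asp1-H397A, 5 in asp1-H397A against ssu72-C13S and 3 for the departure, and 2 and 4 exosome genes. Under that block the signs that changed were those of red1 (0.00856), rrp6 (0.185), mtl1 (0.0679) and aps1 (0.00717) in asp1-H397A, mtr4 in the triple mutant (0.0626), and mtl1 in the triple mutant against ssu72-C13S (0.0595) and in the departure (-0.00839).

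Leaving out 1 library, or both that stood apart, gave 2010 to 4537 genes called in asp1-H397A against WT. Of the 7 genes, 2 to 6 were called in ssu72-C13S, 1 to 5 in asp1-H397A and 2 to 4 in the triple mutant against WT, 0 to 6 in the triple mutant against asp1-H397A, 2 to 4 in asp1-H397A against ssu72-C13S and 0 to 4 for the departure. In ssu72-C13S, asp1-H397A and the triple mutant the exosome list had 3 to 8, 1 to 9 and 1 to 6 calls and the Ccr4-Not list 5 to 9, 3 to 8 and 3 to 9. The MTREC list had 0 to 7 and 2 to 6 in asp1-H397A and the triple mutant, and the meiotic list 3 to 6 in the triple mutant. Signs changed among differences that were not called with all 12 libraries, although some of them were called at an end of the range. Between the triple mutant and asp1-H397A these were mmi1 (-0.179 to 0.00938), red1 (-0.11 to 0.12) and mtr4 (-0.048 to 0.27). Against WT they were pab2 in ssu72-C13S (-0.0307 to 0.0231) and rrp6 (-0.016 to 0.33), mtl1 (-0.057 to 0.16) and mtr4 (-0.17 to 0.0333) in the triple mutant. Rrp6 in asp1-H397A against ssu72-C13S ran from -0.14 to 0.24, and mtl1 from -0.20 to 0.0183 in the triple mutant against ssu72-C13S and from -0.0696 to 0.27 in the departure.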
